A study of Mus musculus with 6 samples.

Results

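Immunoglobulin genes and B lineage genes of the mouse host were read library by library in xenografts of DU145, an established line of human prostate cancer. The set was chosen by name as the rows of the mouse count table called Igkc, Ighm, Jchain, Cd79a, Cd79b, Ms4a1, Mzb1, Ighg2b and Iglc2, which were 9 of 55536 named mouse genes. All tumours came from DU145 cells placed under the skin of male nude mice, which were divided at random once the tumours could be felt. The 3 control tumours were set against 3 tumours of mice labelled as given Zelnorm (tegaserod, a serotonin receptor agonist) by mouth every day, with no dose in the labels. In titles and column names these tumours are called MBZ, a name that the labels do not spell out. Libraries are named by their columns, NC10, NC4 and NC9 for control and MBZ_254, MBZ_257 and MBZ_259 for Zelnorm. Since no label names an animal, p-values measure the spread between these samples, which may be technical. The labels give no age of the mice.

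B cells carry an antibody on their surface as a receptor, with the proteins of Cd79a and Cd79b as its signalling partners. When a B cell matures into a plasma cell it lowers many of its surface genes, makes secreted antibody in large amounts and often switches its heavy chain from Ighm to a gamma or alpha constant gene. Nude mice lack a working thymus and so are short of mature T cells, while their B cells remain. In whole tumour RNA, fewer cells of a type and less RNA per cell cannot be told apart.

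The mouse table held 5798742 to 9185279 counts of named genes per library. A floor of 3 counts corresponded to between 0.326 CPM in NC9 and 0.555 CPM in MBZ_257, where CPM is counts scaled to the library's total of tested mouse genes times its TMM factor, per 1000000 counts. This floor and the intervals below cover counting error only. MBZ_254 stood apart from the other libraries in the results below, and each result that rests on it is given with and without it.

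Gamma constant genes are near copies of each other, which bears on how far their counts can be separated. The stretch of 78 bases below is the longest that the Ighg2b and Ighg2c transcripts of GENCODE vM21 (GRCm38) share, and it is shown with the matching stretches of Ighg1 and Ighg3. Sequences run 5′ to 3′ along the transcript, and capitals mark the bases that differ from Ighg2b.
Ighg2b: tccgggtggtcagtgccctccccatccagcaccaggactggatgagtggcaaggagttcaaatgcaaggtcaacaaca
Ighg2c: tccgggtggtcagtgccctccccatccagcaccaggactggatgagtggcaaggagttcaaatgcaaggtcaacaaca
Ighg1: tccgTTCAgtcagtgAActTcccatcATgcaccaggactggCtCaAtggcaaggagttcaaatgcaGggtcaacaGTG
Ighg3: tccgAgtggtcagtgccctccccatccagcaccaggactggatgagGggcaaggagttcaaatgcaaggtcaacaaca
Ighg3 differed from Ighg2b at 2 of the 78 bases and Ighg1 at 16. A read inside this stretch does not tell Ighg2b from Ighg2c, and the labels do not say how the deposited counting treated such reads. Values of single gamma genes, of the lambda constant genes and of single variable segments are uncertain for that reason.

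The plasma cell genes were led by MBZ_254, a Zelnorm library, and the B cell genes were near the floor in every library apart from Cd79b. Of the 9 genes, 8 had their highest level in MBZ_254, the exception being Cd79b with its highest level in NC10. For comparison, 20.8% of the 14459 mouse genes tested were highest in MBZ_254. Cd79a, Ms4a1, Mzb1 and Iglc2 were not among the tested genes, and their highest levels rest on 6, 3, 6 and 4 counts. No gene of the set was called between the groups by edgeR's quasi-likelihood test at an adjusted p under 0.05, and 0.0% of all 14459 tested genes were. Of the 9 genes, 5 passed the filter on low counts and could be tested (Igkc, Ighm, Jchain, Cd79b and Ighg2b), and 2 of these, Igkc and Jchain, had an unadjusted p under 0.05, as did 253 of all tested genes. With the same genes, limma-voom called 0 of 14459 and DESeq2 called 6, which is 0.0415%, none of them in the set. Without the count filter, edgeR called 2 of 25331 genes, which is 0.0079%, again none of the set.

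**Figure D1:**
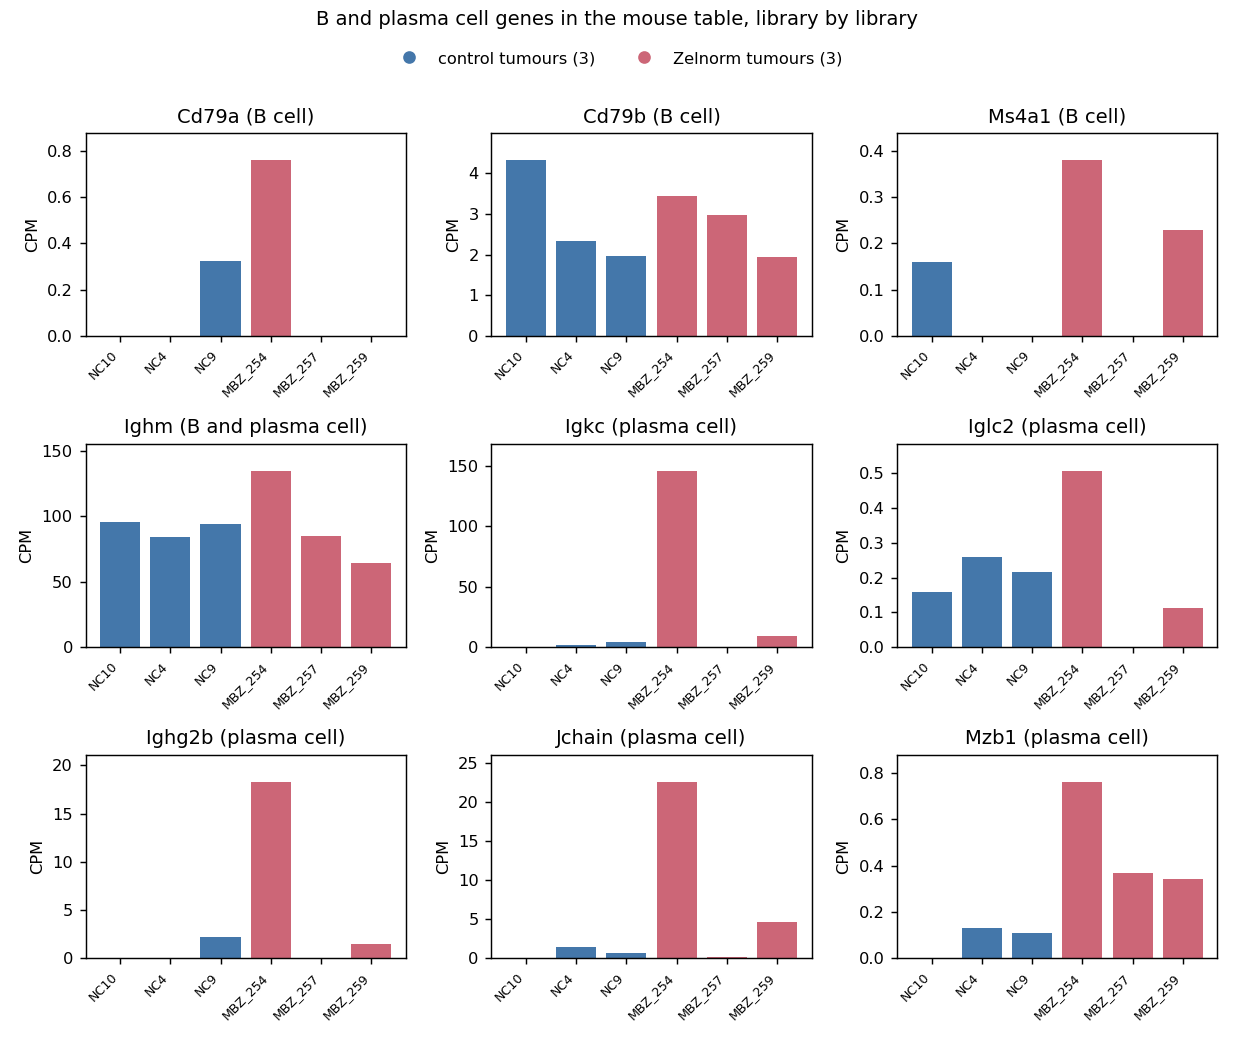
Level of each of the 9 genes (vertical axes, CPM, each starting at 0) in the 3 control and 3 Zelnorm libraries (horizontal axes), 1 bar per library. MBZ_254 has the tallest bar for every gene but Cd79b, and Igkc reaches 146 CPM there against 8.91 CPM in the next highest library.

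Igkc encodes the constant part of the kappa light chain, which most mouse antibodies carry (ENSMUSG00000076609, chromosome 6 from 70726435 to 70726966 on the plus strand, 532 bases of exon). Its deposited estimated counts were 0.38, 13.2 and 42.6 in NC10, NC4 and NC9, and 1150, 1 and 77.7 in MBZ_254, MBZ_257 and MBZ_259. In CPM these were 0, 1.69 and 4.67 in the controls and 146, 0.185 and 8.91 in the Zelnorm libraries. The groups overlapped, since MBZ_257 lay below both NC4 and NC9, while MBZ_254 stood 16.4 times above MBZ_259, the next highest. Means were 2.12 ± 2.37 CPM (SD, n = 3) for control and 51.7 ± 81.8 CPM (SD, n = 3) for Zelnorm, and the Zelnorm mean was 4.55 CPM without MBZ_254. The fitted log2 fold change of Zelnorm over control was 4.51 (SE 1.70), with an adjusted p of 1.00 by edgeR's quasi-likelihood test with Benjamini-Hochberg adjustment, and 1.09 without MBZ_254.

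Jchain encodes the joining chain that links antibody units into IgM pentamers and IgA dimers (ENSMUSG00000067149, chromosome 5 from 88519809 to 88527891 on the minus strand, 2517 bases of exon). It had 0, 11 and 6 counts in NC10, NC4 and NC9, and 178, 1 and 41 in MBZ_254, MBZ_257 and MBZ_259. The corresponding CPM were 0, 1.43 and 0.652 in the controls and 22.6, 0.185 and 4.69 in the Zelnorm libraries. As for Igkc, MBZ_254 was highest, MBZ_259 next, and MBZ_257 fell among the controls, so the groups overlapped. Means were 0.693 ± 0.714 CPM for control and 9.16 ± 11.9 CPM for Zelnorm (SD, n = 3 each), and 2.44 CPM for Zelnorm without MBZ_254. The log2 fold change was 3.66 (SE 1.35), with an adjusted p of 1.00 by edgeR's quasi-likelihood test, and 1.80 without MBZ_254.

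Ighg2b encodes the constant part of the IgG2b heavy chain, which is made after class switching (ENSMUSG00000076613, chromosome 12 from 113302965 to 113307933 on the minus strand, 2678 bases of exon). It had no counts in NC10, NC4 and MBZ_257, 20 counts in NC9, 144 in MBZ_254 and 13.4 in MBZ_259. NC9 was the second highest library at 2.17 CPM, above MBZ_259 at 1.49 CPM and below MBZ_254 at 18.3 CPM, so 1 control lay among the Zelnorm libraries. The log2 fold change was 3.05 (SE 1.65, adjusted p 1.00 by edgeR's quasi-likelihood test) and 0.07 without MBZ_254. The Zelnorm mean was 6.59 ± 10.2 CPM (SD, n = 3) and 0.743 CPM without that library, beside a control mean of 0.724 ± 1.25 CPM (SD, n = 3).

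Mzb1 and Iglc2 did not pass the count filter. Mzb1 encodes a chaperone of the endoplasmic reticulum that helps fold secreted antibody (ENSMUSG00000024353), and had 0, 1 and 1 counts in NC10, NC4 and NC9 against 6, 2 and 3 in MBZ_254, MBZ_257 and MBZ_259. It was the only gene of the set whose groups did not overlap, while 5.52% of all tested genes had groups that did not overlap and 2.52% did so with Zelnorm higher. Its levels, 0.762, 0.370 and 0.343 CPM in the Zelnorm libraries, were at or under the floor of 3 counts in MBZ_257 and MBZ_259. The annotation places another gene on the same strand over 695 of the 1215 exon bases of Mzb1, and that gene had no counts in any library. Iglc2, a lambda light chain constant gene (ENSMUSG00000076937, chromosome 16 from 19198396 to 19200351 on the minus strand), had 1, 2 and 2 counts in the controls and 4, 0 and 1 in the Zelnorm libraries. The annotation places Iglj2, a joining segment, over 38 of its exon bases, and Iglj2 had no counts in any library.

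Ighm, the constant gene of IgM, was the immunoglobulin gene of the set with the most even counts, at 458 or more in every library. It encodes the heavy chain of the receptor on naive B cells and, in another form, of secreted IgM (ENSMUSG00000076617, chromosome 12 from 113418558 to 113422730 on the minus strand, 1886 bases of exon). It had 597, 650 and 865 counts in NC10, NC4 and NC9, and 1065, 458 and 563 in MBZ_254, MBZ_257 and MBZ_259. The levels were 95.7, 84.3 and 94.0 CPM in the controls and 135, 84.7 and 64.3 CPM in the Zelnorm libraries. The highest and the lowest library were both Zelnorm libraries, with the 3 controls between them. MBZ_254 was 1.41 times the next highest library, against 16.4 times for Igkc, 4.83 times for Jchain and 8.42 times for Ighg2b. Means were 91.3 ± 6.18 CPM for control and 94.8 ± 36.5 CPM for Zelnorm (SD, n = 3 each), with a log2 fold change of 0.05 (SE 0.26, adjusted p 1.00 by edgeR's quasi-likelihood test). Without MBZ_254 the log2 fold change was -0.30, with an adjusted p of 0.758 by the same test.

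**Figure D2:**
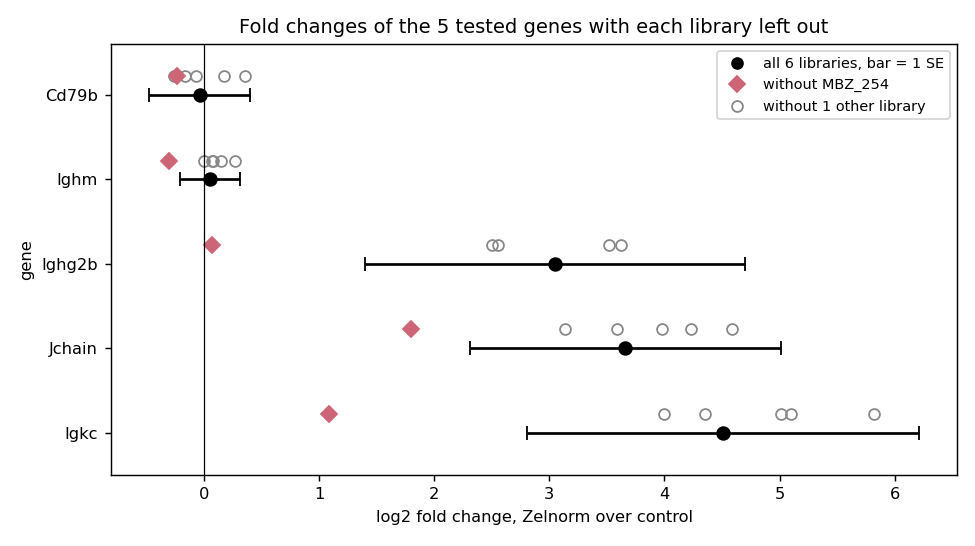
Log2 fold change of Zelnorm over control (horizontal axis) for the 5 tested genes (vertical axis), with all 6 libraries (filled point, bar of 1 SE) and with each library left out in turn. The value of Ighg2b without NC9 is not drawn, since its controls are then all at 0. Leaving out MBZ_254 takes Igkc from 4.51 to 1.09, Jchain from 3.66 to 1.80 and Ighg2b from 3.05 to 0.07.

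The B cell genes proper were almost undetected. Cd79a, a signalling chain of the B cell receptor (ENSMUSG00000003379, chromosome 7 from 24897381 to 24902197 on the plus strand), had 0, 0 and 3 counts in NC10, NC4 and NC9 and 6, 0 and 0 in MBZ_254, MBZ_257 and MBZ_259. Ms4a1, which encodes the B cell surface protein CD20 (ENSMUSG00000024673, chromosome 19 from 11249675 to 11266241 on the minus strand), had 1, 0 and 0 counts in the controls and 3, 0 and 2 in the Zelnorm libraries. Neither passed the count filter, and at this depth a difference between the groups was not detectable.

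Cd79b encodes the partner chain of Cd79a (ENSMUSG00000040592, chromosome 11 from 106311341 to 106314762 on the minus strand, 1431 bases of exon) and was read in every library. It had 27, 18 and 18 counts in NC10, NC4 and NC9 and 27, 16 and 17 in MBZ_254, MBZ_257 and MBZ_259. The levels were 4.33, 2.33 and 1.96 CPM in the controls and 3.43, 2.96 and 1.94 CPM in the Zelnorm libraries, and the groups overlapped over most of their range. Its log2 fold change was -0.04 (SE 0.44), with an adjusted p of 1.00 by edgeR's quasi-likelihood test. The sign turned when 1 library was left out, to 0.35 without NC10 and 0.17 without MBZ_259, and limma-voom gave 0.03. Cd79a, its partner in the receptor, had no counts in 4 of the libraries in which Cd79b had 16 to 27.

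The sums of the plasma cell genes and of the B cell genes were set side by side. The summed counts of the 5 genes grouped as plasma cell genes (Igkc, Ighg2b, Iglc2, Jchain and Mzb1) were 1, 27 and 72 in NC10, NC4 and NC9 and 1482, 4 and 136 in MBZ_254, MBZ_257 and MBZ_259. Antibody on the surface of B cells holds light chains too, so Igkc and Iglc2 do not mark plasma cells alone. Igkc made 1150 of the 1482 counts in MBZ_254. The summed counts of the 3 B cell genes (Cd79a, Cd79b and Ms4a1) were 28, 18 and 21 in the controls and 36, 16 and 19 in the Zelnorm libraries. The B cell sum is mostly Cd79b: without it, Cd79a and Ms4a1 together had 1, 0 and 3 counts in the controls and 9, 0 and 2 in the Zelnorm libraries, highest in MBZ_254 as the plasma cell genes were. NC10 and MBZ_257, 1 library of each group, were the lowest for the plasma cell genes, and NC10 had the second highest B cell sum.

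Per kilobase of exon, the scale on which levels of different genes can be compared, the plasma cell genes summed to 0.262, 4.26 and 10.3 CPM in NC10, NC4 and NC9 and to 292, 0.726 and 19.6 CPM in MBZ_254, MBZ_257 and MBZ_259. The B cell genes summed on that scale to 3.05, 1.63 and 1.59 CPM in the controls and to 2.98, 2.07 and 1.39 CPM in the Zelnorm libraries. The plasma cell sum was the lower of the pair in NC10 and MBZ_257 and the higher in the other 4 libraries. That order rests on Cd79b, since Cd79a and Ms4a1 alone summed to 0.0259 CPM per kilobase in NC10 and to 0 in MBZ_257, below the plasma cell sums there. Ighm alone ran from 34.1 to 71.7 CPM per kilobase, above the plasma cell sum in every library but MBZ_254.

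The median over the 5 plasma cell genes of the difference in mean log2 CPM (prior count 2), Zelnorm minus control, was 1.88, with a spread between replicates of 2.02 (SD). The median over the 3 B cell genes was 0.27, with a spread of 0.80, and that of all tested genes was 0.00. Both list medians were smaller than their spread. Without MBZ_254 the plasma cell median was 0.57 and the B cell median -0.16, and without MBZ_257 they were 3.41 and 0.61. Without NC4 the B cell median was 0.07.

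The balance of Ighm to Igkc, the heavy chain of IgM to the main light chain, moved over a wide range. There were 50.0 Ighm counts per Igkc count in NC4, 20.1 in NC9, 0.926 in MBZ_254, 458 in MBZ_257 and 7.22 in MBZ_259, and NC10 had no Igkc after rounding. The value of MBZ_257 rests on 1 Igkc count. Per kilobase, the ratio of Ighm to Igkc was 14.1 in NC4, 5.67 in NC9, 0.261 in MBZ_254 and 2.04 in MBZ_259. MBZ_254 was thus the only library in which Igkc exceeded Ighm on that scale. An antibody holds heavy and light chains in equal number, but its heavy chain can also be gamma or alpha. Those constant genes summed to 1535 counts in MBZ_254, beside 1065 of Ighm. In libraries with such counts the ratio of Ighm to Igkc is therefore not that of all heavy to light chains. Gamma and alpha genes add to the heavy side only. NC10 and MBZ_257 had 0 counts of them, and 597 and 458 of Ighm beside 0 and 1 of Igkc after rounding. Cd79a had no counts in either library. Which cells these Ighm counts came from was not tested.

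By a measure of likeness, the gene closest to Igkc over the 6 libraries was Jchain, among genes other than immunoglobulin genes. The measure was the mean absolute difference in log2 CPM (prior count 2) after each gene was centred on its own mean, taken over 12807 candidate genes. Candidates were tested genes with a mean of at least 1 CPM. Immunoglobulin genes, Ighg2b and Ighm among them, were left out beforehand, as were clone and predicted names. Jchain lay at 1.01, and Rab43 at 1.51, Ephb1 at 1.53 and Tmem254c at 1.57 were also among the nearest, while Igkc itself spanned 9.11 log2 units. Closest to Cd79b, which spanned 1.06, were Kcnab1 at 0.07, Kif1a and Egflam at 0.09, and Neil1 and Etv4 at 0.10. For Ighm, a comparison added after its values were seen, the closest were Dclk2 and Smug1 at 0.06 and Carmil2, Gas2l3 and Srgn at 0.07, with Ighm spanning 1.07. Cd79b and Ighm varied little, so many genes lie near them, and their distances are not comparable with those from Igkc.

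Of the other immunoglobulin constant genes, 6 of 9 were highest in MBZ_254, as Igkc and Ighm were. Ighg1, the IgG1 constant gene, had 0, 5 and 1 counts in NC10, NC4 and NC9 and 908, 0 and 17 in MBZ_254, MBZ_257 and MBZ_259. Igha, the IgA constant gene, had 0, 5 and 1 counts in the controls and 144, 0 and 79 in the Zelnorm libraries. Ighg2c had 0, 0 and 13 in the controls and 314, 0 and 10 in the Zelnorm libraries. Ighg3 was read in MBZ_254 only, with 25 counts, and Ighe and Iglc4 had none in any library. Ighd, the constant gene of the IgD that naive B cells carry beside IgM, was the only gene of the 9 to pass the filter. Its levels were 1.92, 1.43 and 2.06 CPM in the controls and 3.18, 2.59 and 2.17 CPM in the Zelnorm libraries, with a log2 fold change of 0.55 (SE 0.38) and no call. The 3 Zelnorm libraries lay above the 3 controls for Ighd, as they did for 2.52% of all tested genes.

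The makeup of the switched heavy chain genes differed from library to library. Gamma and alpha constant genes summed to 0, 10 and 35 counts in NC10, NC4 and NC9 and to 1535, 0 and 119 in MBZ_254, MBZ_257 and MBZ_259. In MBZ_254 the leading gene was Ighg1 with 59.2% of these counts (95% Wilson interval 56.7% to 61.6%), followed by Ighg2c with 20.5% (18.5% to 22.5%). In MBZ_259 the leading gene was Igha with 66.4% (57.5% to 74.2%), against 9.38% (8.02% to 10.9%) in MBZ_254. In NC9 it was Ighg2b with 57.1% (40.9% to 72.0%), against 9.38% in MBZ_254 and 10.9% (6.50% to 17.8%) in MBZ_259. Each of these 3 libraries therefore had another leading gene, though the split between Ighg2b and Ighg2c depends on how reads in shared stretches were assigned. Lambda constant genes made 0.691% (0.350% to 1.36%) of light chain constant counts in MBZ_254, 2.50% (0.688% to 8.66%) in MBZ_259 and 4.44% (1.23% to 14.8%) in NC9.

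Variable segments, the parts of an antibody that differ between B cell clones, were, like Igkc, highest in MBZ_254, followed by MBZ_259, and lowest in NC10 and MBZ_257. Of 348 variable segment genes in the table (160 kappa, 3 lambda and 185 heavy), 5, 24 and 19 had at least 1 count in NC10, NC4 and NC9, and 111, 4 and 25 in MBZ_254, MBZ_257 and MBZ_259. Their summed counts were 8, 55 and 52 in the controls and 2290, 4 and 85 in the Zelnorm libraries. MBZ_254 held 68 segment genes that no other library had, against 0 to 6 in each of the others. More counts let more segments reach 1 count, and the libraries were not thinned to a common number.

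In MBZ_254 the counts were spread over many segments with no single segment in the majority among kappa or heavy segments. The leading kappa segment, Igkv6-13, held 240 of 1554 kappa variable counts or 15.4% (95% Wilson interval 13.7% to 17.3%), and the 5 leading segments 57.1%, over 58 segments read. Igkv6-13 had no counts in the other 5 libraries. The leading heavy segment, Ighv14-1, held 191 of 687 counts or 27.8% (24.6% to 31.3%), and the 5 leading segments 67.0%, over 51 segments read. The leading kappa segment was Igkv12-44 in MBZ_259 with 16 of 59 counts and Igkv3-7 in NC4 with 8 of 38. NC9 had no single leading segment, since several, Igkv17-121, Igkv3-7 and Igkv4-68 among them, were level there at 4 of 33 counts. Igkv3-7 was read in 5 of the 6 libraries, with 2, 8 and 4 counts in NC10, NC4 and NC9, 214 in MBZ_254, 12 in MBZ_259 and none in MBZ_257. Near-identical segments can share reads, and the interval in NC4 is wide (11.1% to 36.3%).

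**Figure D3:**
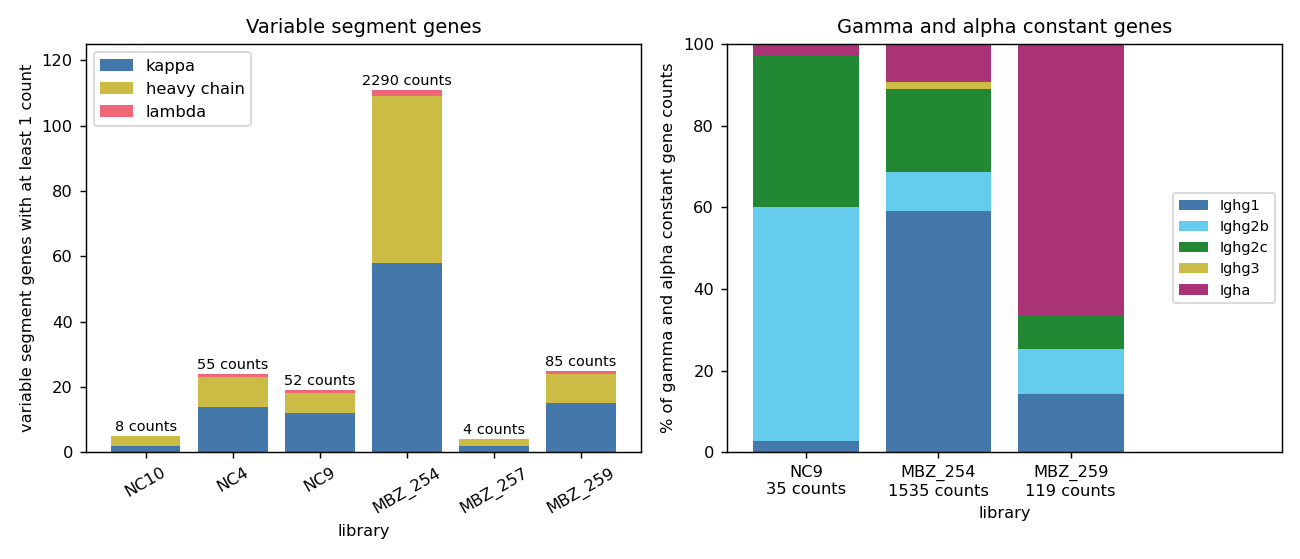
Left, number of variable segment genes with at least 1 count (vertical axis) in each library (horizontal axis). Right, share of gamma and alpha constant gene counts (vertical axis, percent, stacked bars) in the 3 libraries with over 30 such counts, where Ighg2b leads in NC9, Ighg1 in MBZ_254 and Igha in MBZ_259.

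Genes that mark B cells beyond the set were checked from a list of 18. Of these, 6 passed the count filter, 5 of them with a fold change above 0 and 1 below, and none was called, with a median log2 fold change of 0.23 against 0.02 over all tested genes. The 6 that passed were Cd72, Ebf1, Cd37, Cd22, Bank1 and H2-Ob, some of which other cells also express. Cd22, an inhibitory receptor of B cells, had 16.2, 12.6 and 10.5 CPM in the controls and 21.7, 20.5 and 11.3 CPM in the Zelnorm libraries. The more restricted genes were near the floor. Pax5, the factor that holds B cell identity, had 2, 4 and 4 counts in the controls and 5, 2 and 0 in the Zelnorm libraries. Pou2af1, a coactivator of immunoglobulin genes, is named after its values were seen: it had 23 counts in MBZ_254 and 0 to 3 in the others.

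The label of the set was therefore only partly borne out by defining genes. Cd79a and Ms4a1 had at most 6 counts in any library, so these defining B cell genes were barely read, while Igkc reached 1150 counts in MBZ_254. Genes of the receptor's signalling chain were read well in every library, although myeloid cells also use most of them. Of 12, 11 passed the filter, 8 with a fold change above 0 and 3 below, none was called, and the median log2 fold change was 0.03. The highest were Cd81, Fcgr2b and Lyn, and MBZ_254 was highest for 3 of the 12.

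Genes of the plasma cell programme were read at similar summed levels in all 6 libraries, MBZ_254 included. Of 16 genes listed, 15 were matched by symbol and 13 passed the filter, 9 with a fold change above 0 and 4 below, with a median of 0.15 and none called. MBZ_254 was highest for 4 of the 15, namely Prdm1, Derl3, Pim2 and Slamf7. It stood at 1.11, 1.21, 1.14 and 1.35 times the next highest library for these, in that order. It was not highest for the rest, Irf4 and Tnfrsf17 among them. Irf4 had 2.73, 10.8 and 5.54 CPM in the controls and 4.32, 2.96 and 2.29 CPM in the Zelnorm libraries. Tnfrsf17 had 1, 1 and 5 counts in the controls and 0, 0 and 2 in the Zelnorm libraries. The summed level of the 15 genes was 630, 717 and 638 CPM in NC10, NC4 and NC9 and 704, 634 and 767 CPM in MBZ_254, MBZ_257 and MBZ_259. Xbp1, the factor that drives the secretory apparatus, had 152, 192 and 146 CPM in the controls and 158, 149 and 180 CPM in the Zelnorm libraries. Sdc1, which encodes the plasma cell surface protein CD138, had 73.9, 79.7 and 73.6 CPM in the controls and 86.6, 73.1 and 91.8 CPM in the Zelnorm libraries. Both genes are also active in many other cells, and Ighm, Igkc and these genes had different orders over the libraries. Herpud1, which acts in the degradation of misfolded proteins, reached 98.2 CPM in MBZ_259 against 35.6 to 47.9 CPM in the others.

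Most signals that keep plasma cells alive or draw them in were read in both groups. Of 12 genes, 8 passed the filter, 5 with a fold change above 0 and 3 below, none called, with a median of 0.11. Cxcr4, the receptor for the chemokine of Cxcl12, had 46.8, 50.6 and 43.1 CPM in the controls and 73.2, 54.8 and 78.1 CPM in the Zelnorm libraries, so the groups did not overlap. Among all tested genes, 2.52% had groups that did not overlap with Zelnorm higher. The log2 fold change of Cxcr4 was 0.55 (SE 0.17) with an adjusted p of 1.00 by edgeR's quasi-likelihood test. Vcam1, an adhesion protein that lymphocytes bind, had 139, 132 and 114 CPM in the controls and 209, 121 and 146 CPM in the Zelnorm libraries. Tnfsf13b, which encodes the survival factor BAFF, had 14.1, 9.20 and 9.23 CPM in the controls and 14.2, 8.51 and 7.66 CPM in the Zelnorm libraries. The Fc receptors, through which other cells bind antibody, all passed the filter, 4 of 5 with a fold change above 0 and none called. The largest fold change among these 5 was that of Fcgr4, a receptor of myeloid cells, at 0.67 (SE 0.25) on the log2 scale.

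Markers of T cells were highest in the same library as the plasma cell genes. All 10 T cell markers had their highest level in MBZ_254, and their sum was 48.3, 41.1 and 28.7 CPM in NC10, NC4 and NC9 and 103, 37.7 and 34.4 CPM in MBZ_254, MBZ_257 and MBZ_259. Of this, Cd4 alone made 40.9, 33.2 and 17.7 CPM in the controls and 51.2, 33.1 and 25.9 CPM in the Zelnorm libraries. MBZ_254 was 1.25 times the next highest library for Cd4 and 2.19 times for Lck, against 26.0 times for Cd8a and 10.8 times for Cd3e. Cd8a, the coreceptor of cytotoxic T cells, had 1, 3 and 5 counts in the controls and 117, 1 and 5 in the Zelnorm libraries. Cd3e, a chain of the T cell receptor complex, had 0, 4 and 3 counts in the controls and 44, 0 and 3 in the Zelnorm libraries. No T cell marker was at 0 in MBZ_254, and the part of these cells in the antibody values was not tested. For Igkc, MBZ_259 was second, but for Cd8a it was level with NC9.

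Other cell types moved differently. Macrophage markers summed to 3760, 3334 and 2801 CPM in NC10, NC4 and NC9 and to 3740, 4150 and 4053 CPM in MBZ_254, MBZ_257 and MBZ_259, with MBZ_254 highest for 2 of 6. Plasmacytoid dendritic cells share some genes with B cells, and their markers summed to 189, 180 and 225 CPM in the controls and 239, 155 and 216 CPM in the Zelnorm libraries. The 6 lymph node stroma markers summed to 186, 243 and 179 CPM in the controls and 235, 146 and 240 CPM in the Zelnorm libraries. Of these, Cxcl13 (32.9 CPM) and Mfge8 (178 CPM) were highest in MBZ_254, and Clu was not. Madcam1 and Ccl21a were at 0 in all 6 libraries, and Glycam1 had at most 1 count. Skeletal muscle markers were lowest in MBZ_254 at 68.5 CPM and highest in MBZ_259 at 5074 CPM, with 313, 2049 and 1368 CPM in the controls and 138 CPM in MBZ_257. All 5 fat cell markers and all 5 red cell markers had a fold change below 0, with none called, and all 5 skeletal muscle markers and the 2 skin epidermis markers that passed had one above 0. Their part in the antibody values was not tested.

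**Figure D4:**
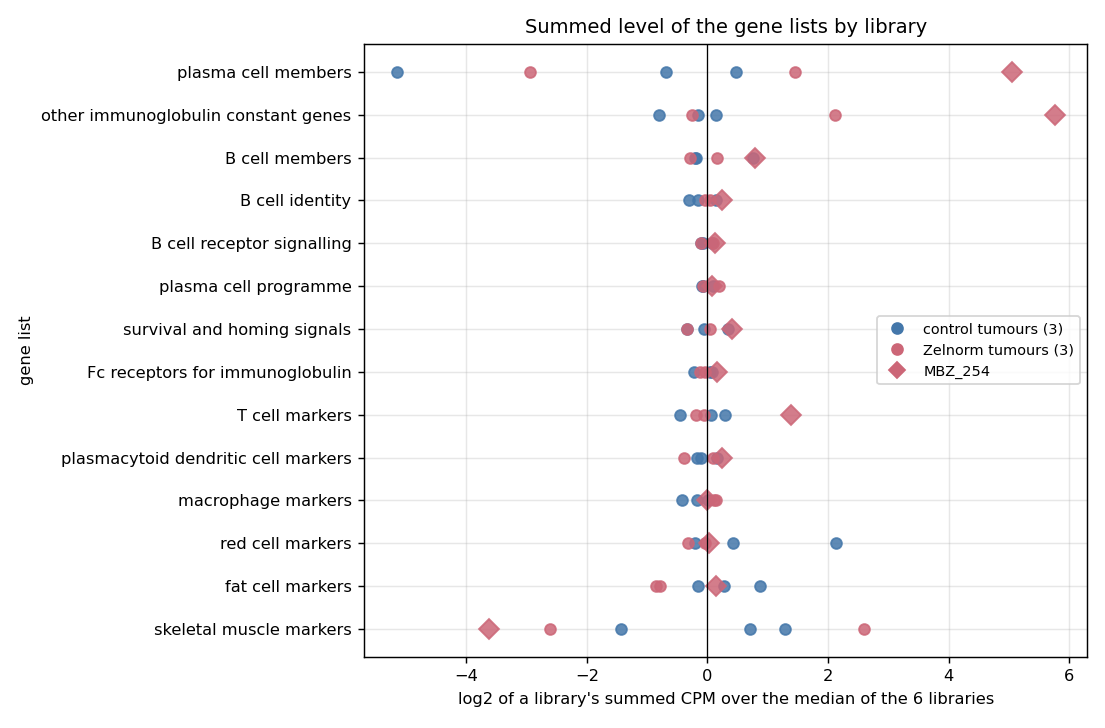
Summed level of each gene list by library, relative to the median of the 6 libraries (horizontal axis, log2 scale), 1 row per list, with MBZ_254 as a diamond. MBZ_254 stands clear of the other libraries for the plasma cell genes, the other constant genes and the T cell markers (103 CPM against 28.7 to 48.3 CPM), and is not the highest for the plasma cell programme or the macrophage markers.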

How the data were processed

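RNA was read in 3 control and 3 Zelnorm tumours. The authors deposited estimated counts per gene in a mouse and a human table. The submitters' processing notes name GRCm38, GRCh38, edgeR, DESeq2, StringTie and HISAT2. Their roles, and how reads were divided between species, are not given in the sources used here. Per the labels' protocols, libraries came from total RNA with a TruSeq kit.

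Tests had been planned for raw counts. Of mouse values above 0, 27% were not whole, so values were rounded. Rows without a gene name (856 of 56392, 0.317% to 0.468% of a library's counts) were left out. Zelnorm was compared with control using edgeR 4.0.16 in R 4.3.3 (filterByExpr, TMM, two-sided quasi-likelihood test, Benjamini-Hochberg adjustment, called under 0.05), tested on simulated data. DESeq2 1.42.0, limma 3.58.1 (voom), other scalings, no filter and each library left out were alternatives. Coordinates, exon lengths and transcript sequences come from GENCODE vM21 (GRCm38).

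Named genes were the 9 members, the list members with the highest mean CPM (up to 6 or 3 per list), the genes most like Igkc and Cd79b, and the leading segments. Ighe, Iglc4, Iglj2, Igkv4-68, Pax5, Pou2af1, Irf4, Tnfrsf17, Cd3e, Fcgr4, Glycam1, Madcam1, Ccl21a and the genes like Ighm were added where a count or the set's label turned on them, after their values were seen. Prdm1, Derl3, Pim2 and Slamf7 were added in the same way. The results of 2 genes are not reported here. Members and lists were chosen with earlier results of these data known.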

Additional observations from a re-analysis of the deposited data

How the results depend on the processing

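No gene of the set was called under any of 13 alternatives. DESeq2 called 6 and the fit without the count filter 2 of all mouse genes, against 0. The log2 fold change of Ighm turned from 0.05 to -0.0115 with limma-voom, -0.000866 without NC4 and -0.30 without MBZ_254, with 0.27 without MBZ_259 as its highest value. That of Cd79b turned from -0.04 to 0.0345 with limma-voom, 0.35 without NC10 and 0.17 without MBZ_259, with -0.261 without NC9 as its lowest value. The cause was not tested. Over the alternatives Igkc ran from 1.09 to 5.82 (adjusted p 0.5 to 1.00) and Jchain from 1.80 to 4.59 (adjusted p 0.626 to 1.00), both lowest without MBZ_254. Ighg2b ran from 0.07 without MBZ_254 to 8.59 without NC9, where all controls are at 0 and the value depends on the prior count. With 1 library left out, the plasma cell median ran from 0.57 to 3.41 and the B cell median from -0.16 to 0.61. At prior counts of 0.5 and 5 they were 2.53 and 1.48, and 0.36 and 0.18. No paired analysis was possible because the columns carry numbers that no label repeats, so a replicate block could not be fitted. Depth limits Cd79a, Ms4a1, Mzb1 and Iglc2, each at 6 counts or fewer in every library.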

Other observations

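The human table was read for the same genes, since the tumour cells are human. IGKC, MS4A1, IGHG2 and IGLC2 had no counts in any of the 6 libraries. IGHM had 22 counts over all 6 libraries, JCHAIN 3 and CD79B 2. MZB1 had 75 counts, with 9 to 16 per library, and CD79A had 104, with 3 to 41 per library. The mouse genes Igkc and Ighm thus had no sizeable partner in the human table, including MBZ_254, where IGHM had 1 count.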
